A study of Mus musculus with 21 samples.

Results

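The genes described here are 10 genes of hair follicle morphogenesis, chosen by name from the 24391 gene symbols of the count tables: Shh, Ptch1 and Gli1 of the Hedgehog pathway, Wnt10b and Lef1 of the Wnt pathway, the receptor gene Edar, and the transcription factor genes Msx2, Dlx3, Foxn1 and Gata3. RNA sequencing was performed on skin, brain and liver of newborn C57BL/6 mice at postnatal day 0. The KI group held 2 mice heterozygous for a Jak1 knock-in allele made by CRISPR-Cas9, which carries a missense change from histidine to aspartate and silent changes in the neighbouring codons, and the WT group held 5 mice without it. KI mice were bred through a mosaic male, and the allele was not restricted to a tissue. With 7 mice and 3 tissues there were 21 libraries, and the question was which transcripts differ between KI and WT mice in each tissue.

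Hair follicles form when the embryonic epidermis thickens into a placode over a condensate of dermal cells. Wnt and Eda signals set up the placode, Shh made by the placode drives its downgrowth and acts on both epithelium and dermis, and Msx2, Dlx3, Foxn1 and Gata3 act later in the cells that build the hair shaft and inner root sheath. In mouse back skin the follicles arise in successive waves before birth, so newborn skin holds follicles of several stages side by side.

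The libraries held 26549326 to 38388133 counts on genes, and the 7 skin libraries 28637568 to 34900383, so skin depth differed little between libraries. Levels are given as CPM, the counts of a gene scaled to 1e+06 counts on genes in that library, and as RPKM, which divides CPM by the exon length in kilobases, when genes are compared with each other. The skin label fitted its markers, with Krt5, a keratin of basal keratinocytes, at 435 to 2501 CPM in skin and at 0 to 8 counts in every brain and liver library. The skin libraries differed widely in epidermal content. The summed level of 10 suprabasal epidermis markers, genes of differentiating keratinocytes, was 11600 CPM in KI 1 and 283 CPM in KI 2, and ran from 494 to 13468 CPM in WT, so the KI libraries lay near opposite ends of the WT range or beyond it. In such bulk samples fewer cells of a type and less RNA per cell cannot be told apart. P-values measure the spread between these samples, 1 library per mouse and tissue.

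Each gene of the set was detected in all 7 skin libraries, and the level per length differed widely between genes. Gli1, the zinc finger transcription factor that is both effector and target of Hedgehog signalling, stood highest in WT skin at 48.8 ± 8.42 RPKM (SD, n = 5), above the next gene in 5 of 5 libraries. Dlx3, a homeobox gene of the hair matrix and the differentiating epidermis, had 17.3 ± 11.1 RPKM and Gata3, a zinc finger factor of the inner root sheath and epidermis, 15.8 ± 6.40 RPKM. These values do not order the pair beyond their spread, since Dlx3 was above Gata3 in 3 of 5 libraries. Shh, the secreted ligand, had 11.4 ± 5.68 RPKM and its receptor gene Ptch1 10.2 ± 5.13 RPKM, and Shh was the higher of the pair in 2 of 5 libraries. Wnt10b, a ligand expressed in the early placode, had 8.72 ± 3.21 RPKM, and the homeobox gene Msx2 7.09 ± 3.37 RPKM. Lef1, the DNA-binding partner of beta-catenin, had 5.46 ± 1.53 RPKM, and Edar, the receptor for ectodysplasin, 4.93 ± 2.21 RPKM. Foxn1, the forkhead gene lost in nude mice, closed the order at 1.24 ± 0.798 RPKM, below Edar in 5 of 5 libraries. For Lef1 and Ptch1 the place depends on the length used: with the longest annotated transcript in place of the union of exons, Lef1 rose to 12.9 RPKM and Ptch1 to 15.6 RPKM.

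**Figure D1:**
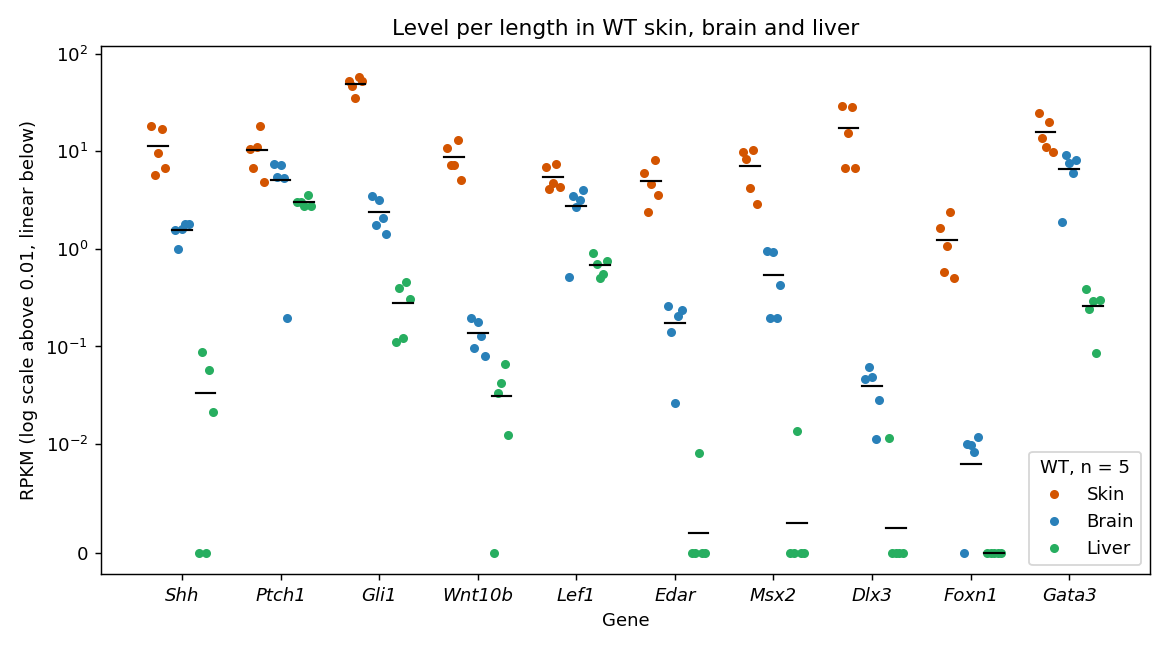
RPKM (log scale above 0.01, linear below) of the 10 genes in the 5 WT skin, brain and liver libraries; points are libraries and black bars are means. Gli1 is the highest gene in skin, Ptch1 and Lef1 are present in all 3 tissues, and 1 brain library has Ptch1 at 0.195 RPKM.

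Skin was compared with the other tissues of the WT mice to ask where these genes are expressed at birth. A gene was called higher in skin at an adjusted p under 0.1 (edgeR quasi-likelihood test, Benjamini-Hochberg over all genes) and a difference of at least 4-fold. By this rule 7 of the 10 genes were higher in skin than in brain, where 18.6% of the 17071 genes tested were, and 9 of 10 were higher in skin than in liver, where 18.7% were. The study's methods give a lower RNA integrity for skin than for liver, and its part in these differences was not tested.

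Of the Hedgehog genes, Shh and Gli1 met the rule against both tissues and Ptch1 against neither. Shh had 443 or more counts in every WT skin library, 84 to 163 in WT brain and 0 to 9 in WT liver, so its groups do not overlap. The log2 difference from brain was 2.96 (SE 0.454, adjusted p = 2.04e-05). Gli1 had 4691 or more counts in WT skin, 142 to 429 in WT brain and 14 to 58 in WT liver, with a log2 difference from brain of 4.45 (SE 0.346, adjusted p = 8.69e-09) and from liver of 6.71 (SE 0.397, adjusted p = 5.54e-10). Ptch1 differed least of these 3 genes: 31.8 to 120 CPM in WT skin, 1.28 to 48.2 CPM in WT brain and 18.1 to 23.4 CPM in WT liver. Its log2 differences were 1.11 from brain (SE 0.558, adjusted p = 0.0818) and 1.07 from liver (SE 0.559, adjusted p = 0.104), and neither met the rule.

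Wnt10b and Edar were near absent outside skin. Wnt10b had 5 to 15 counts in WT brain and 0 to 5 in WT liver, with a log2 difference from brain of 6.07 (SE 0.454, adjusted p = 5.54e-09). Edar had 3 to 31 counts in WT brain, a log2 difference of 4.91 (SE 0.520, adjusted p = 3.37e-07), and 1 count in all 5 WT livers together, where the skin level was 3021 times the liver level with a 95% interval of 542 to 119337 from counting error alone. Lef1, in contrast, was found in each tissue, at 4.45 to 34.5 CPM in WT brain and 4.38 to 7.83 CPM in WT liver. Its log2 difference was 1.06 from brain (SE 0.383, adjusted p = 0.0202), short of 4-fold, and 2.30 from liver (SE 0.401, adjusted p = 9.62e-05).

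Among the transcription factor genes, Dlx3 and Foxn1 had the fewest brain counts of the 10 genes. Dlx3 had 1 to 5 counts per WT brain and 1 count in the 5 WT livers, and its log2 difference from brain was 8.82 (SE 0.603, adjusted p = 1.95e-09). Foxn1 had 4 counts in the 5 WT brains and 0 in the 5 WT livers, so skin was at least 224-fold higher than liver against a floor of 3 counts over the group. Msx2 had 15 to 76 counts in WT brain, 3.80 below skin on the log2 scale (SE 0.519, adjusted p = 5.93e-06), and 1 count in WT liver. Gata3, which also marks midbrain neurons and T cells, had 7.46 to 36.1 CPM in WT brain against 39.0 to 98.7 CPM in WT skin, a log2 difference of 1.34 (SE 0.388, adjusted p = 0.00541) that fell short of 4-fold. Where only a 2-fold difference was asked for, all 10 genes were higher in skin than in brain.

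Within skin the libraries fell into the same order in outline for 6 of the 10 genes: Shh, Wnt10b, Lef1, Edar, Foxn1 and Dlx3. Shh was at 38.4 CPM in KI 1 and 17.0 in KI 2, and at 48.3, 15.4, 25.96, 45.1 and 18.0 CPM in WT 1 to WT 5. KI 1, WT 1 and WT 4 were high, WT 3 lay between, and KI 2, WT 2 and WT 5 were low. Ptch1 was at 109 and 36.6 CPM in KI and at 69.4, 44.0, 72.1, 120 and 31.8 CPM in WT. KI 1 and WT 4 were high and WT 3 lay just above WT 1, and the KI values fell inside the WT range, as they did for Shh.

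Gli1 did not share this pattern. It was at 164 and 173 CPM in KI and at 199, 175, 134, 217 and 197 CPM in WT, so that its highest library was 1.62 times its lowest, close to the median of 1.68 over the 16163 genes tested in skin. For the other 9 genes that ratio was 2.55 to 5.23. WT 5, low for Shh and Ptch1, was above both KI libraries for Gli1, and WT 3 had the lowest Gli1 value. Gli1 overlaps Arhgap9, a gene on the opposite strand, and the libraries were not stranded by the kit used. The liver libraries, with 700 to 1306 Arhgap9 counts, held 2 to 58 Gli1 counts, and across the 7 skin libraries the correlation between both genes was 0.058. Shh also overlaps annotated genes on the opposite strand, and Gata3 overlaps genes on either strand. The part of these overlaps was not tested.

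The Wnt and Eda genes followed the first pattern. Wnt10b was at 27.3 and 12.1 CPM in KI and at 25.5, 16.8, 16.9, 30.6 and 12.0 CPM in WT. Lef1 was at 55.8 and 23.6 CPM in KI and at 59.0, 35.3, 41.4, 63.8 and 36.9 CPM in WT, where KI 2 was the lowest of the 7 libraries. Edar was at 24.1 and 7.55 CPM in KI and at 21.6, 8.63, 16.8, 29.5 and 13.1 CPM in WT. For Lef1 and Edar, KI 2 lay below all WT libraries while KI 1 lay among the highest.

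To show the sequence these genes are transcribed from, the RefSeq promoter windows (table build GRCm38.p6, 250 bases before to 50 after a start site) were placed on NCBIM37, the build of the counts, by exact match. Windows were found for 7 of the 10 genes, and none for Shh, Gli1 and Dlx3. Edar and Lef1 are the genes whose windows hold CTTTGA, a core of the TCF/LEF motif, searched on both strands and present in 16.003% of all 32851 windows; its letters, or those of its reverse complement TCAAAG, are in capitals. The Edar window lies on the minus strand at chr10:58138395-58138694, across the annotated start of the gene, and the Lef1 window on the plus strand at chr3:130858962-130859261, inside the gene at the most downstream of its 4 RefSeq starts.
Edar: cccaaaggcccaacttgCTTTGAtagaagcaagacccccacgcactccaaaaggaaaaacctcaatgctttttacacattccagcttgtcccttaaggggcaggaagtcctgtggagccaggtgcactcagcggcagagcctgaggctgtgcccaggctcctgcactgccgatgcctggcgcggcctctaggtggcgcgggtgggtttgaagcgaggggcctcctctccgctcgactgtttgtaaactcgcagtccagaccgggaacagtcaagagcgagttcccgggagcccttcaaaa
Lef1: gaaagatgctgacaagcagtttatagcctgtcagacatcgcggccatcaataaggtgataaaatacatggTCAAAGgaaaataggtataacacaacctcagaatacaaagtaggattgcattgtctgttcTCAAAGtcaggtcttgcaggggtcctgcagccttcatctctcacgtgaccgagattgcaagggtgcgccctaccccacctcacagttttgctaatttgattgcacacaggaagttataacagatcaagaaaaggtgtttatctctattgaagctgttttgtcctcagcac
The match begins 233 bases before the start in Edar, and 180 and 120 bases before it in Lef1. A letter match is a description of the window and no evidence of binding.

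Foxn1, Dlx3 and Msx2 had the highest ratios of highest to lowest library of the 10 genes. Dlx3 was at 60.1 and 18.7 CPM in KI and at 76.4, 17.9, 40.8, 75.4 and 17.6 CPM in WT, with a gap between a high set of 3 libraries and a low set of 3. Foxn1 was at 4.88 and 1.48 CPM in KI and at 5.32, 1.88, 3.41, 7.74 and 1.61 CPM in WT, with the largest ratio, 5.23. Msx2 and Gata3 departed from the others in WT 2. Msx2 was at 13.1 and 6.13 CPM in KI and at 24.4, 20.4, 10.3, 25.02 and 7.02 CPM in WT, so WT 2, low for Dlx3 and Foxn1, was high for Msx2. Gata3 was at 75.3 and 25.98 CPM in KI and at 98.7, 54.0, 43.5, 79.8 and 39.0 CPM in WT, with WT 2 in the middle and KI 2 lowest.

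**Figure D2:**
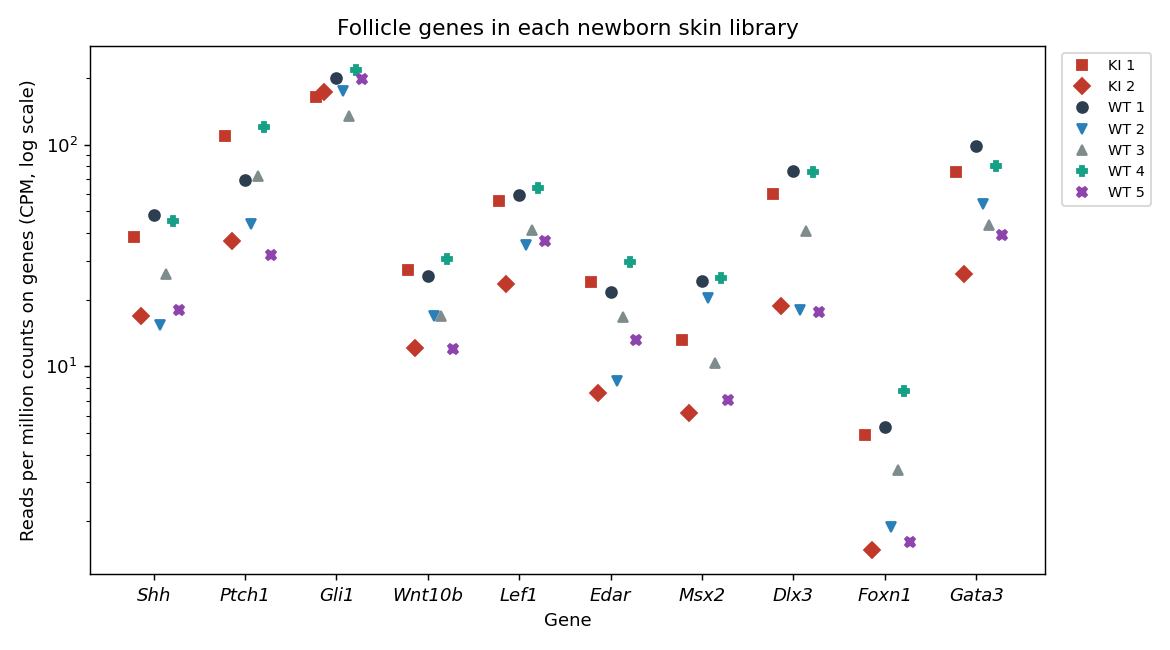
CPM (log scale) of the 10 genes in each of the 7 newborn skin libraries, red for KI and other colours for WT. For every gene but Gli1, KI 1 is above KI 2, and KI and WT values overlap for all 10 genes.

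Foxn1 and Msx2 are the genes whose windows hold TAATTA, the core bound by many homeodomain factors, which reads the same on both strands and is present in 5.29% of all windows. It is shown in capitals, 29 bases before the start of Foxn1 and 187 before that of Msx2. The Foxn1 window lies on the minus strand at chr11:78200061-78200360 and the Msx2 window on the minus strand at chr13:53568100-53568399.
Foxn1: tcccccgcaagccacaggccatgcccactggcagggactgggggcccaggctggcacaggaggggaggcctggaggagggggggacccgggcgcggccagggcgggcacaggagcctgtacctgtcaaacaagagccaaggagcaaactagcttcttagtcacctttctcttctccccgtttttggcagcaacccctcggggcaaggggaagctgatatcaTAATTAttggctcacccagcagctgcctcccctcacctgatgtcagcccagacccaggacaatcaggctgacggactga
Msx2: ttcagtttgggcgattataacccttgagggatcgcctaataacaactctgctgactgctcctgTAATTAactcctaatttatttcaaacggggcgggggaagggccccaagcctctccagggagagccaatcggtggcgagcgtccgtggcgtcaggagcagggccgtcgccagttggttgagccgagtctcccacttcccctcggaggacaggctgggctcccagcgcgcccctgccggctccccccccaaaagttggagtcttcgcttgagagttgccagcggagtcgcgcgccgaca
The GLI motif GACCACCCA, searched on both strands, was in none of the 10 windows of the 7 genes and in 0.253% of all windows. The GATA motif AGATAA was in 1 of these 10 windows, that of Lef1 shown above, and in 11.2% of all windows.

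Over the 7 skin libraries the 36 pairs among the 9 genes other than Gli1 had Pearson correlations of log2 CPM from 0.553 to 0.988, with a median of 0.898. The 9 pairs with Gli1 ran from 0.014 to 0.395. The points are the same 7 libraries throughout, which differ together in epidermal content, so these are descriptions. Ptch1, a textbook Hedgehog target as Gli1 is, had a correlation of 0.857 with Shh and of 0.014 with Gli1.

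Among the other Hedgehog genes, Hhip (35.1 to 68.1 CPM), which encodes a ligand-binding inhibitor, had a correlation of 0.864 with Ptch1 and 0.271 with Gli1. Gli2 (74.9 to 112 CPM), the main activator among the Gli factors, had 0.407 with Ptch1 and 0.734 with Gli1. Smo, the signal transducer, stayed within 90.9 to 119 CPM, with 0.357 and 0.491. Other genes of the list did not divide in this way: Sufu, an inhibitor of the Gli factors, had -0.639 with Ptch1 and -0.558 with Gli1, and the ligand gene Dhh -0.705 and -0.604. These genes were picked after their values were seen.

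The 9 genes moved with the epithelial lists, and with the melanocyte and dermal papilla lists as well. Their correlations with the mean log2 level of the suprabasal epidermis markers were 0.821 to 0.947, and 0.331 to 0.985 without the 2 libraries farthest from the median of that level. With 26 hair shaft and inner root sheath genes they were 0.727 to 0.988 (0.730 to 0.981 without 2 libraries chosen likewise), and with 9 melanocyte markers 0.770 to 0.978 (0.511 to 0.984). With 18 dermal papilla markers they were 0.633 to 0.908 (0.747 to 0.991). With 9 dermal fibroblast markers they were negative, from -0.773 to -0.478 (-0.736 to -0.381). With 8 endothelial markers they were -0.873 to -0.597, and -0.749 to 0.0018 without the 2 libraries, the last value being that of Ptch1. For Gli1 the values of some lists depended on the 2 libraries farthest from the median. With the suprabasal list 0.087 became 0.593 without them, and 0.596 with 18 dermal papilla markers became 0.046. Other lists changed less for Gli1: -0.671 with the endothelial list became -0.858, and 0.205 with the hair shaft and inner root sheath list became 0.027.

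The keratin genes Krt10 and Krt71 spread further than any gene of the set, where Foxn1 had the largest ratio of highest to lowest library, 5.23. Not all epidermal markers did so clearly, since Krt5, the keratin of basal keratinocytes, had a ratio of 5.75. Krt10, a keratin of suprabasal keratinocytes, was at 3767 and 50.1 CPM in KI and at 2329, 564, 845, 3727 and 79.8 CPM in WT, a ratio of highest to lowest of 75.1. Krt71, a keratin of the inner root sheath, was at 93.5 and 8.99 CPM in KI and at 73.6, 8.80, 33.2, 92.8 and 8.17 CPM in WT. KI 1, WT 1 and WT 4 were again the high libraries for both genes. WT 2 was among the lowest for Krt71 and in the middle for Krt10.

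**Figure D3:**
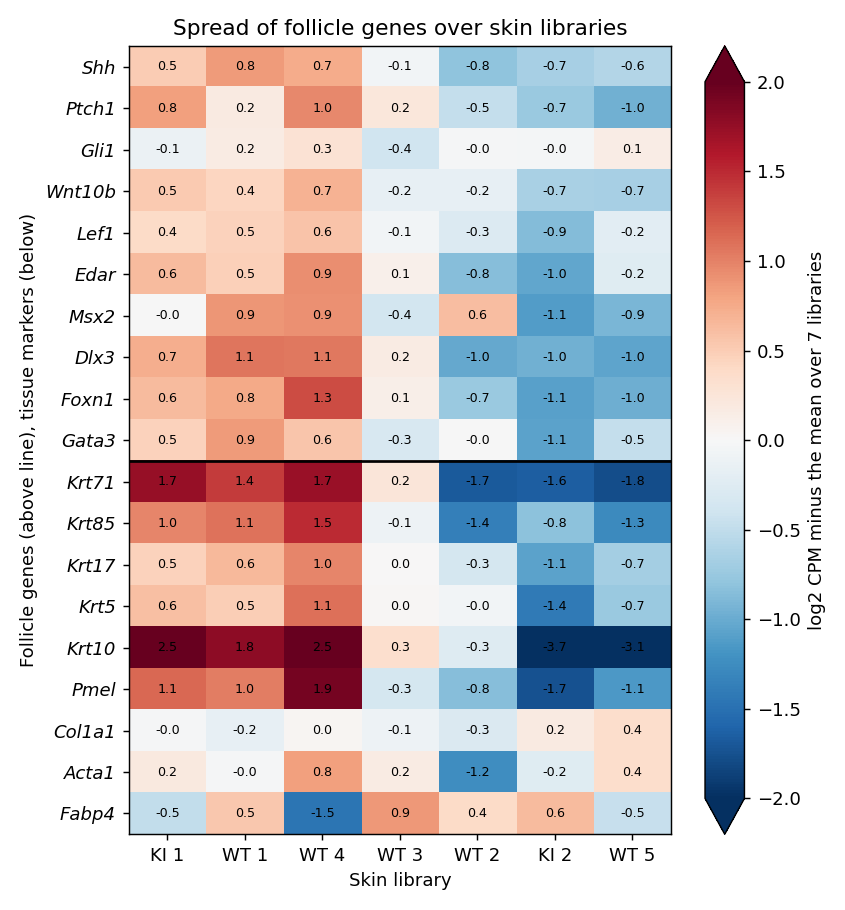
Log2 CPM of the 10 genes (above the line) and 9 tissue markers (below) in each skin library, minus the mean of that gene over the 7 libraries; red is above the mean and blue below, and the colour scale ends at 2 in either direction. All follicle genes but Gli1 and Msx2 are red in KI 1, WT 1 and WT 4, and Krt10 spans -3.7 to 2.5 where Gli1 spans -0.4 to 0.3.

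The genes most like the set were named by their correlation with the mean standardised level of the 10 genes over the 7 skin libraries. They were Hmx1 (0.996), Gm8994 (0.995), Mycn (0.993), Pmel (0.992), Tyr (0.991), Slc45a2 (0.991), Foxe1 (0.989), Ptgds (0.989), Fam163b (0.988) and Krt17 (0.988). Pmel, Tyr and Slc45a2 are pigment cell genes, Mycn encodes a Myc family factor, Foxe1 a forkhead factor and Krt17 a keratin of the outer root sheath. Krt17 ran from 173 to 718 CPM and Pmel from 11.5 to 145 CPM. Others reached low values, where 3 counts are up to 0.105 CPM in a WT skin library. Gm8994 ran only from 0.448 to 0.780 CPM, Fam163b from 0.069 to 3.12, Foxe1 from 0.103 to 2.86 and Hmx1 from 0.310 to 9.53. Of the 16153 other genes tested, 397 (2.46%) had a correlation above 0.9.

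Next, KI was compared with WT in skin, the comparison the study was designed for. None of the 10 genes was called at an adjusted p under 0.1, where 4 of 16163 genes (0.0247%) were (edgeR quasi-likelihood test), and none had an unadjusted p under 0.05. DESeq2 called 0 of the 10 genes and 109 genes in all. For none of the 10 did both KI libraries lie on one side of all WT libraries, against 9.83% of all genes tested. The log2 fold change was below 0 for 9 of 10 genes with a median of -0.18, against a median of -0.03 over all genes. Of all genes tested 43.3% were above 0. The 10 genes were measured in the same 7 libraries, where 9 of them moved together, so their signs are not independent.

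The intervals were wide for all genes but Gli1. For Gli1 the log2 fold change was -0.10 with a 95% interval of -0.52 to 0.32, so that KI was 0.695 to 1.24 times WT. Shh had -0.13 with an interval of -1.36 to 1.11, and Ptch1 0.13 with -1.17 to 1.42. For these, a change of 2-fold in either direction lies within the interval.

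Among the Wnt and Eda genes, Wnt10b had a log2 fold change of -0.02 (interval -1.01 to 0.96), Lef1 -0.23 (-1.10 to 0.64) and Edar -0.17 (-1.46 to 1.13). Among the transcription factor genes, Gata3 had -0.29 (-1.40 to 0.83), Dlx3 -0.20 (-1.87 to 1.47) and Foxn1 -0.31 (-1.99 to 1.37). Msx2 had the largest estimate, -0.82 (interval -2.08 to 0.45), with an adjusted p of 0.999 in the edgeR quasi-likelihood test as for each of the 10 genes.

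The sign of most of these estimates rested on single libraries. Msx2, at -1.42 to -0.38, and Gli1, at -0.19 to -0.0035, stayed below 0 under all 15 alternatives. Without KI 2, 7 of the genes with a value below 0 had one above 0, among them Wnt10b at 0.44, Edar at 0.44 and Dlx3 at 0.41, and without KI 1 Ptch1 fell to -0.81. With the epidermal marker level as a covariate, an alternative chosen after seeing the data, Shh, Edar, Wnt10b, Foxn1 and Dlx3 had values above 0 and again none of the 10 was called. The part of epidermal content in the estimates was not tested beyond this fit.

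**Figure D4:**
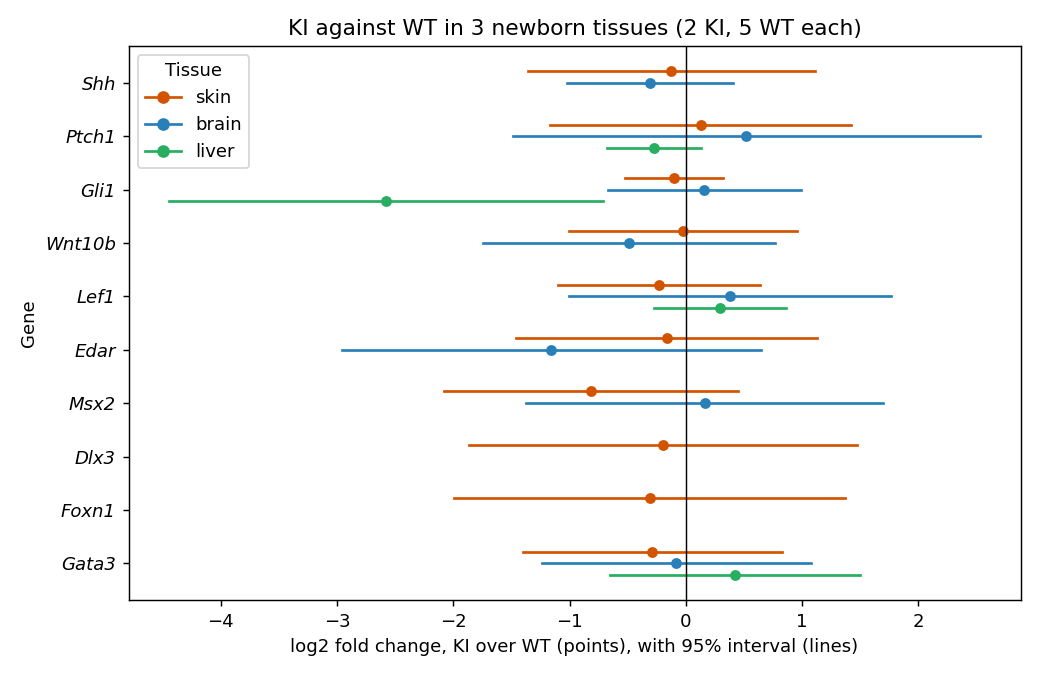
Log2 fold change of KI over WT (points) with its 95% interval (lines) for each gene tested in skin, brain and liver, 2 KI and 5 WT libraries per tissue. In skin and brain every interval spans 0, and that of Gli1 in liver, -4.44 to -0.71, does not, although its adjusted p is 0.148.

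The pathway lists, which hold the 10 genes along with others, gave no call in skin either. Of the Hedgehog list 0 of 19 genes tested were called, with a median log2 fold change of -0.05 and 9 genes above 0. Of the Wnt list 0 of 46 were called, with a median of -0.13 and 14 above 0. Of the Eda list 0 of 16 were called, with a median of 0.05 and 10 above 0. Of the BMP and FGF list 0 of 18 were called, with a median of -0.07 and 6 above 0. The follicle transcription factor list, which holds 4 of the 10 genes, had 0 of 33 called, a median of -0.22 and 7 above 0. The all-gene median was -0.03, and 43.3% of all genes tested were above 0. Without the 10 genes the median was -0.02 for the Hedgehog list (16 tested) and -0.13 for the Wnt list (44 tested). It was 0.07 for the Eda list (15 tested) and -0.18 for the transcription factor list (29 tested).

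Dkk4, a secreted Wnt inhibitor and Eda target of the placode, had the largest estimate among the pathway genes whose KI libraries lay beyond all WT libraries. It was at 0.218 and 0.034 CPM in KI and at 0.463 to 1.59 CPM in WT, a log2 fold change of -2.63 (SE 0.861, adjusted p = 0.944, edgeR quasi-likelihood test). The KI 2 value lies under 3 counts, which are 0.103 CPM in that library. Fzd3, a Wnt receptor gene, had -0.42 (SE 0.153, adjusted p = 0.999) with 21.4 and 15.2 CPM in KI against 23.6 to 26.5 in WT. Axin1, a scaffold of the beta-catenin destruction complex, had -0.11, with 67.8 and 66.9 CPM against 69.2 to 91.9. In the Eda list the lymphotoxin gene Ltb had 1.07 (SE 0.387) and the addressin gene Madcam1 0.87 (SE 0.394), and among the transcription factors Trps1, a GATA-type repressor, had -0.26 (SE 0.103). None of these passed the test, with an adjusted p of 0.999 for each gene after Dkk4. Both KI libraries lay below all WT libraries for 3 of 46 Wnt genes and 1 of 33 transcription factors. In the Eda list 2 of 16 genes lay above and 2 below, and in the Hedgehog list 0 of 19 lay on either side. Over all genes tested the share on one side was 9.83%.

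Genes of the follicle's products and compartments were not called either. Of the hair shaft and inner root sheath genes 0 of 26 were called, with 20 above 0 and a median of 0.23, where 43.3% of all genes were above 0. The outer root sheath list had 0 of 9 called (median -0.02), the dermal papilla list 0 of 18 (median -0.02), the basal epidermis list 0 of 9 (median -0.03) and the suprabasal list 0 of 9 (median -0.22). Cells other than follicle cells also gave no call: fibroblast (0 of 9, median 0.10), skeletal muscle (0 of 13, median -0.15), adipocyte (0 of 9, median 0.31), melanocyte (0 of 9, median -0.22), endothelial (0 of 8, median 0.34), T cell (0 of 9, median 0.49), neuron (0 of 9, median -0.42) and hepatocyte markers (0 of 8, median -2.11, at 3.00 to 40.7 CPM in sum). Myeloid markers had 9 of 9 genes above 0 with a median of 0.56 and summed levels of 490 to 648 CPM in KI against 353 to 471 CPM in WT, with 0 of 9 called. Both KI libraries lay above all WT libraries for 5 of 9 myeloid, 4 of 9 T cell and 2 of 8 endothelial markers. Over all genes tested the share on one side was 9.83%. An unadjusted p under 0.05 (edgeR quasi-likelihood test) was found for 6 of 9 myeloid markers and for 738 of all 16163 genes.

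**Figure D5:**
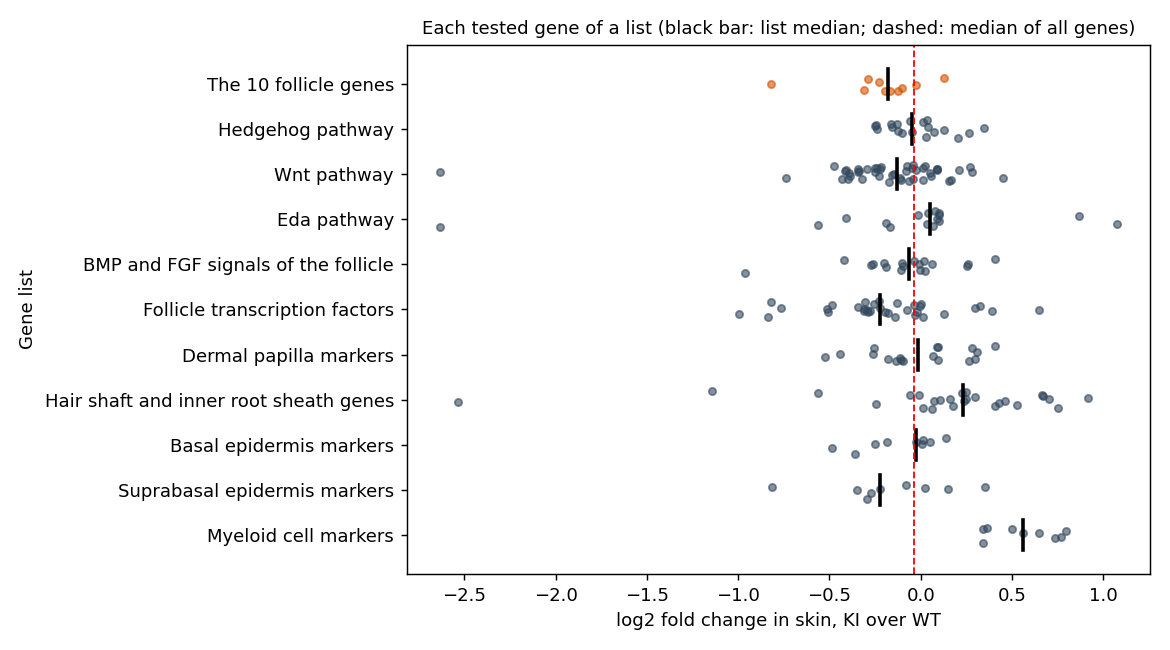
Log2 fold change in skin, KI over WT, of each tested gene of a list (points), with the list median (black bar) and the median of all genes (dashed line, -0.03). The follicle genes have a median of -0.18, the hair shaft and inner root sheath genes 0.23 and the myeloid markers 0.56.

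In brain 8 of the 10 genes passed the filter on low counts, Foxn1 and Dlx3 being too low, and none was called, where 0 of 16322 genes (0%) were called by edgeR's quasi-likelihood test, 1732 had an unadjusted p under 0.05 and DESeq2 called 514. Without brain WT 5 the test called 1698 genes and with the replicate number as a block 2165, and none of the 8 was among them. The block fit compares KI with WT only within the 2 replicate numbers that both groups hold. None of the 8 had both KI libraries on one side of all WT libraries, against 27.3% of all genes. Single WT libraries stood apart here. Ptch1 had 34 counts in brain WT 5 and 1115 to 1813 in the other 6 brain libraries. Lef1 had 145 counts and Gata3 243 in brain WT 1, against 728 to 1236 and 807 to 1116 in the others.

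Brain WT 5 held 1110 of 16322 genes (6.80%) under 0.5 times their level in every other brain library, and Ptch1 ranked 19 among them by size of the gap. In the other 6 brain libraries 0 to 37 genes were as low. Smo was at 10.4 CPM in WT 5 and 27.02 to 44.5 in the others, and Hhip at 2.75 against 7.56 to 12.3. In brain WT 1, Tcf7l2, a relative of Lef1 expressed in the thalamus, was at 29.1 CPM against 201 to 418. The region of brain in each sample was not analysed here, and its part in these values was not tested. Without brain WT 5 the log2 fold change of Ptch1 went from 0.52 to 0.23, without brain WT 1 that of Lef1 went from 0.38 to 0.12, and neither was called.

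In liver 4 of the 10 genes could be tested, and none was called where 833 of 14966 genes (5.57%) were. Gli1 had 2 and 10 counts in KI and 14, 58, 14, 56 and 40 in WT, so both KI libraries lay below all WT libraries, as both lay on one side of WT for 23.9% of all genes tested. The log2 fold change was -2.58 (SE 0.828, adjusted p = 0.148, edgeR quasi-likelihood test). DESeq2 gave an adjusted p of 0.0201 and the fit with the replicate number as a block 0.0971, and the alternatives ranged from 0.0201 to 0.537. In the block fit only the 2 replicate numbers that KI and WT share compare the genotypes, so the other WT livers add nothing to its estimate. The 17 tested Hedgehog genes outside the set had a median of -0.46, against -0.02 over all genes, and 0 of 17 were called. Of 9 fibroblast markers 8 were below 0 in liver, where 46.8% of all genes tested were above 0. Their summed levels were 629 to 681 CPM in KI and 539 to 1586 CPM in WT, and their part in the Gli1 value was not tested.

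Ptch1, Lef1 and Gata3 overlapped between KI and WT in liver. Ptch1 was at 12.8 and 20.5 CPM in KI and at 18.1 to 23.4 CPM in WT, a log2 fold change of -0.27 (interval -0.68 to 0.13), and Lef1 at 8.86 and 5.72 CPM against 4.38 to 7.83, 0.29 (interval -0.27 to 0.86). Gata3 was at 1.27 and 1.53 CPM against 0.341 to 1.54, 0.42 (interval -0.65 to 1.49). Msx2, too low for the test, had 6 and 10 counts in KI livers and 0, 0, 1, 0 and 0 in WT.

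The KI effect in skin was set against that in the other tissues by an interaction term in a fit of all 21 libraries. None of the 10 genes was called for skin against brain, where 0 of 18062 genes (0%) were by edgeR's quasi-likelihood test and 1339 had an unadjusted p under 0.05, and none for skin against liver, where 18 genes (0.0997%) were. For Gli1 the log2 effect in skin minus that in liver was 2.51 (SE 0.797, adjusted p = 0.519), and DESeq2 gave an adjusted p of 0.0985. For Msx2 it was -5.57 (SE 1.33, adjusted p = 0.216), a value that depends on the prior count since WT livers held 1 count in all.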

How the data were processed

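RNA of skin, brain and liver from 2 KI and 5 WT newborn mice was sequenced in 21 libraries with an unstranded kit. Per the labels and the study's methods, the authors aligned reads to mm9 (NCBIM37) with TopHat2 and deposited raw HTSeq counts per gene symbol, without normalization. The 5 HTSeq summary lines of each table were left out of library sizes. Genes were matched by symbol, and lengths and positions came from GENCODE vM1 on NCBIM37.

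Counts were filtered with filterByExpr, scaled by TMM and tested with edgeR 4.0.16 (quasi-likelihood, Benjamini-Hochberg over all genes tested) in R 4.3.3, KI against WT within each tissue, skin against each other tissue in WT, and the interactions over all libraries. Intervals are 95% intervals from the fit, or exact Poisson intervals where a ratio of counts is given, which cover counting error only. Correlations used log2(CPM + 0.5). DESeq2 1.42.0 and other settings were alternatives, and the scripts were tested on simulated data. The 10 genes, the gene lists and the tests were chosen with earlier results of these data known. Besides the 10 genes, the text names list genes called in skin (none), the 3 genes per signal, transcription factor or hair shaft list with the largest fold change among those whose KI libraries both lay beyond all WT libraries, and the 10 genes most like the set. Depth was 26549326 to 38388133 counts on genes per library. No 2 libraries were alike within sampling noise. The labels do not say whether a replicate number marks the same mouse in each tissue.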

Additional observations from a re-analysis of the deposited data

Results flagged for a closer look

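Of 29 groups of 5 WT libraries in which a gene of the set had counts, 5 held a library whose gap to its neighbour was large for the range of the group, and chance flags about 1 in 20 groups. Ptch1 in brain WT 5 was at 1.28 CPM (34 counts), far below the other WT brains at 35.2 to 48.2 CPM. The other flags rest on 0 or 1 count, where a difference of 1 count sets the gap, so the rate of about 1 in 20 does not hold for such groups. Edar and Msx2 were each at 0.0332 CPM (1 count) in liver WT 3 and at 0 in the other WT livers, Dlx3 was at 0.0301 CPM (1 count) in liver WT 1 and at 0 in the others, and Foxn1 was at 0 CPM in brain WT 1 with 1 count in each other WT brain.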

How the results depend on the processing

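In skin none of the 10 genes was called under any of the alternatives, which included DESeq2, other size factors, no filter, a stricter threshold, covariates, a fit of all 21 libraries and each library left out. The KI and WT mice share only 2 replicate numbers, whose deviations had correlations of 0.238 and 0.0532 in skin, so the numbers were not taken as pairs. A fit with the number as a block compares KI with WT within those 2 numbers only. With the replicate number as a block, 0 of the 10 genes were called in skin and Edar turned to 0.074 (log2), Gata3 in brain turned to 0.58, and 1 gene, Gli1, was called in liver. That block changed no call of a gene of the set between tissues. DESeq2 likewise called 1 gene, Gli1, in liver and in the interaction of skin and liver. With Y-linked expression as a covariate, Wnt10b in skin turned to 0.079 and Gli1 in brain to -0.023, and in the fit of all libraries Gata3 in brain was 0.0015. With the epidermal level as a covariate, chosen after seeing the data, Shh turned to 0.18, Edar to 0.0027, Wnt10b to 0.24, Foxn1 to 0.13 and Dlx3 to 0.25 in skin. With each library left out in turn, log2 fold changes in skin ranged for Shh from -0.78 to 0.34, Ptch1 from -0.81 to 0.70, Lef1 from -0.93 to 0.25, Edar from -1.18 to 0.44, Wnt10b from -0.68 to 0.44, Foxn1 from -1.36 to 0.30, Gata3 from -1.20 to 0.28 and Dlx3 from -1.22 to 0.41, with the extremes given by leaving out KI 1 or KI 2. In brain they ranged for Gli1 from -0.15 to 0.44, Msx2 from -0.044 to 0.48 and Gata3 from -0.31 to 0.078, and in liver for Ptch1 from -0.64 to 0.030 and Lef1 from -0.055 to 0.59. A fit without 1 of the KI libraries assumes that the lone library varies like WT. The cause of these changes was not tested. For the 9 skin genes other than Gli1 the 95% interval included a 2-fold lower level in KI. Over all genes tested the number called ranged from 0 to 109 (DESeq2) in skin against 4, from 0 to 2165 (replicate block) in brain against 0, with 1698 without brain WT 5, and from 56 (without liver KI 2) to 1462 (DESeq2) in liver against 833.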
